A study of Mus musculus with 4 samples.

Results

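The response to PJ34 of neural stem/progenitor cells (NSPCs) that lack p53 was read from the 2 arrays of Trp53-/- cells, replicates 1 and 2, out of 4 arrays in the series. The other 2 arrays hold wild-type cells. Each array set the RNA of PJ34-treated cells (20 μM, red dye Cy5) against that of untreated cells of the same genotype (green dye Cy3). The arrays were chosen by their titles alone, and no measured value was used. The labels give Slc:ICR as the strain and embryonic day 13.5 as the age of the NSPCs of both genotypes, which were grown in B-27 medium with epidermal and fibroblast growth factors, so treated and untreated cells of both genotypes share these conditions. The Trp53 mutant line was obtained as heterozygous mice, and how it was crossed to that strain is not given in the sources used here. How long the cells hybridized to the arrays were exposed to PJ34 is not given in the sources used here, nor how many embryos went into a culture. The RNAs of the replicates came from separate preparations, which makes the array the replicate, with n = 2. The dyes were not swapped, so a dye bias of a probe and an effect of PJ34 cannot be told apart within a genotype. In such bulk RNA, fewer cells of a type and less RNA per cell also cannot be told apart.

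Poly(ADP-ribose) polymerases (PARPs) attach chains of ADP-ribose to proteins, chiefly at sites of DNA breakage, and PJ34 is a small molecule that blocks them. p53, the product of Trp53, is a transcription factor that is stabilized by DNA damage and switches on genes for cell cycle arrest (Cdkn1a), for apoptosis (Bbc3, Pmaip1, Fas, Perp) and for its own decay (Mdm2, Ccng1). NSPCs are the dividing cells of the embryonic brain that give rise to neurons, astrocytes and oligodendrocytes. The question the Trp53-/- arrays address is which transcripts respond to the inhibitor when p53 is missing.

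Values are given as log2 of the PJ34 signal over the untreated signal unless another scale is named, so 1 is a 2-fold increase. Of 55681 probes, 27029 (48.5%) were well above background in at least 1 channel on both arrays of at least 1 genotype, and they gave 20215 genes. A gene was called with the thresholds of the study's methods, p and Storey's q below 0.05 in limma and a change of more than 2-fold, and "rose" and "fell" are used of called genes. Depending on channel and array, 21503 to 27154 probes stood well above background, no spot was saturated, and the number of arrays limits the precision. The Trp53 probe (chr11:69404204-69404263, mm9) does not check the deletion, since which part of the gene was removed is not given in the sources used here. Its untreated channel had log2 intensities of 7.56 and 7.82 on the Trp53-/- arrays and 8.28 and 8.51 on the wild-type arrays, well above background on all 4. These levels, like all channel intensities given here, were read after loess and a scaling of average intensities between arrays (limma's Aquantile). Trp53 itself had log2 ratios of -0.30 and -0.16 (replicates 1 and 2) in Trp53-/- cells and was not called.

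The 2 Trp53-/- arrays were not alike in 1 respect, which bears on the results that follow. On replicate 2 the Y-linked genes Eif2s3y (4.22) and Ddx3y (3.12) were far higher in the PJ34 channel, and the probe XIST in the X inactivation locus was far lower (-5.33). On replicate 1 the same probes read -0.20, -0.20 and 0.58. A second probe, Xist, read 0.30 and -1.39. The X-linked genes that escape inactivation were also lower on replicate 2, with Eif2s3x at 0.05 and -0.55, Ddx3x at 0.24 and -0.28, Kdm6a at 0.22 and -0.15 and Kdm5c at 0.22 and -0.06. The treated and untreated RNA of replicate 2 therefore differed in sex-linked transcripts, and those of replicate 1 did not to this extent. Whether both channels of an array came from the same embryos is not given in the sources used here, so on replicate 2 an effect of PJ34 and a difference between the embryos behind the 2 channels cannot be told apart. Counts of list members at q below 0.05 that exceed 1 are therefore also given without replicate 2 where leaving it out moved them by more than 1.5 times. Counts of called list members are not given in this way for every list. In that fit replicate 1 stands alone for its genotype and is assumed to vary like the wild-type arrays.

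More transcripts fell than rose with PJ34 in Trp53-/- NSPCs, with ratios normalized by loess. Of the 20215 genes, 18 rose (0.089%) and 55 fell (0.272%), with median log2 ratios of 1.13 and -1.20 over the called genes. All 55 genes that fell were below 0 on both arrays, and 35 of them were more than 2-fold lower on each array. Of the 18 that rose, 16 were above 0 on both arrays and 7 were more than 2-fold higher on each. The exceptions were Eif2s3y and Ddx3y, both from replicate 2 alone. Without replicate 2 the counts were 14 and 72 genes, and 8 of the 18 and 41 of the 55 were called again. Without replicate 1 the counts were 59 and 106. With no limit on the fold change, 2590 genes (12.8%) were higher and 2127 (10.5%) were lower at q below 0.05, against 634 and 693 without replicate 2. The balance of the called genes depended on the scaling, with 24.7% of them higher here, 55.2% (69 higher, 56 lower) when each array was centred on the median of the kept probes, 71.5% (377 and 150) with the ratios of the scanner software and 99.9% (3384 and 4) when arrays were centred on the median of all probes. The last of these raised the median of all genes tested from 0.033 to 0.63, and the directions of the gene lists below were read relative to that median. With loess the 2 arrays had a correlation of 0.64 across genes, which are not independent replicates. The counts of list members at q below 0.05 that follow are to be set against the 12.8% and 10.5% of all genes.

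**Figure D1:**
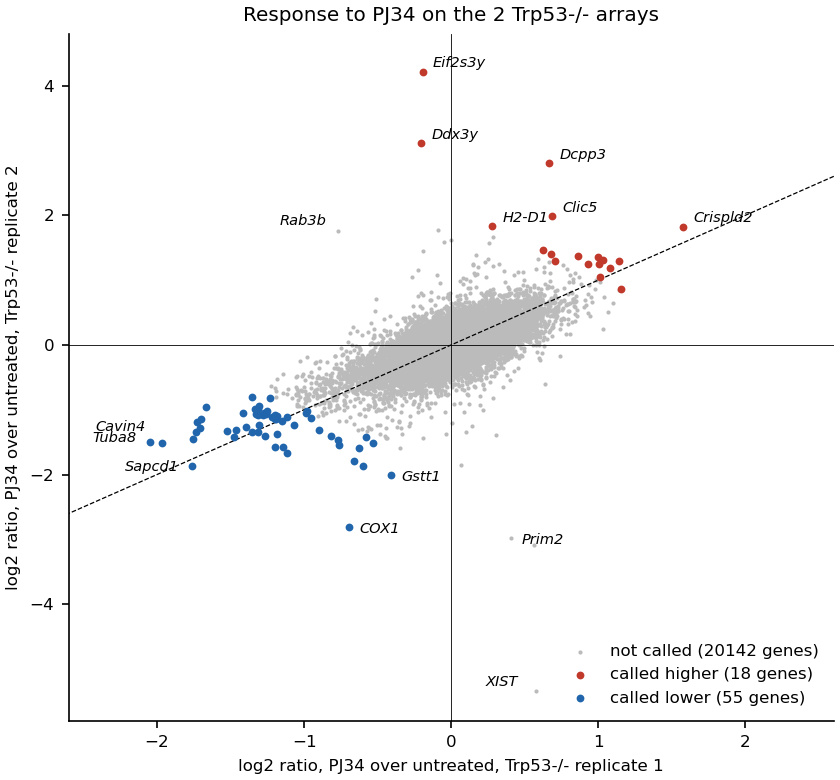
Log2 ratios of PJ34 over untreated on Trp53-/- replicate 1 (x axis) and replicate 2 (y axis), 1 point per gene, with called genes in colour. The 55 genes that fell lie below 0 on both axes, while Eif2s3y and Ddx3y lie near 0 on replicate 1 and at 4.22 and 3.12 on replicate 2.

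Among called genes the largest decrease was that of Sapcd1 (chr17:35163370-35163665, mm9), with log2 ratios of -1.76 and -1.88 on replicates 1 and 2. Its mean of -1.82 ± 0.079 (SD, n = 2) is a 3.53-fold decrease with q = 1.36e-05 in limma. Both arrays gave nearly the same value. Tuba8 (chr6:121176046-121176105), an alpha-tubulin of restricted expression, had -2.04 and -1.50. Cavin4 (chr4:48686163-48686222), a caveola protein best known from muscle, had -1.97 and -1.52. These decreases were 3.41-fold and 3.35-fold, with q = 0.000113 and 4.27e-05. For Tuba8, Cavin4 and Sapcd1 the smallest change on any Trp53-/- array was larger than that on either wild-type array, where the log2 ratios lay between -0.65 and 0.45. Cavin4 was faint in untreated wild-type cells, with log2 intensities of 6.42 and 7.07 against 9.26 and 9.51 in Trp53-/- cells. It was well above background there on only 1 of the 2 arrays. Tuba8 had 6.56 and 6.78 against 8.61 and 8.62. A decrease of these genes in wild-type cells may therefore not have registered.

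Genes of signalling, matrix and immune function followed. Cgref1, a secreted protein with EF-hand motifs, had -1.48 and -1.42. Nxph3, a neurexin ligand, had -1.46 and -1.31. Pcp4l1, a relative of the calmodulin regulator Pcp4, had -1.52 and -1.33. These 3 genes were within 0.5 of 0 on both wild-type arrays. Nxph3 was faint in untreated wild-type cells, with log2 intensities of 6.95 and 7.01 against 8.77 and 9.13 in Trp53-/- cells. Col5a3, a fibrillar collagen chain, had -1.73 and -1.34, and Tnfaip6, a hyaluronan-binding protein, had -1.12 and -1.67. The cytokine gene Il18 had -1.71 and -1.28 and Il33 had -0.95 and -1.12. Il18 had the larger change of these cytokines on both arrays. Mical1, which oxidizes actin, had -1.20 and -1.57, and the complement receptor-like Cd93 had -1.27 and -1.41. The adjacent probes on chromosome 14, Myh7 (-1.70 and -1.15) and A_55_P2093231 (-1.73 and -1.19), gave almost the same values. The receptor Unc5b, which binds netrins, had -1.22 and -1.12, and Fgfr3, a fibroblast growth factor receptor, had -1.18 and -1.37.

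The largest increase of a gene well above background in both channels was that of Crispld2 (chr8:122575417-122575476), a secreted cysteine-rich protein, with 1.58 and 1.82. Its mean of 1.70 ± 0.17 (SD, n = 2) is a 3.25-fold increase with q = 2.23e-05 in limma. Clstn2, a synaptic calsyntenin, had 1.14 and 1.29. Ccdc177 had 1.08 and 1.18, Epb41l4b had 1.03 and 1.30, and the phosphatase gene Dusp28 had 1.00 and 1.25. The arrays differed by less than 0.3 in each of these genes. Lpl, the lipoprotein lipase, had 1.16 and 0.86, Gch1, the first enzyme of tetrahydrobiopterin synthesis, had 0.71 and 1.30, and Lynx1, a modulator of nicotinic receptors, had 0.86 and 1.37. In 4 of the 18 genes that rose, Clic5, Dcpp3, Ddx3y and Eif2s3y, neither Trp53-/- array had an untreated channel well above background. Clic5 was at least 2.51-fold higher and Dcpp3 at least 2.84-fold higher with PJ34, with log2 ratios of 0.68 and 1.99 for Clic5 and 0.66 and 2.80 for Dcpp3. Among called genes with another kept probe, that of Crispld2 (1.51), Ifi202b (-1.70), Niban2 (-1.34), Fgfr3 (-1.12), Tagln2 (-1.03), Tuba1c (-1.06) and Mfng (-1.01) was called in the same direction, while those of Lpl (0.49), Gch1 (0.34), Mxra7 (-0.25), Adamts4 (-0.31) and Plekha4 (-0.30) and both of Tnfaip6 (-0.85 and -0.50) were not. Of the 3 other probes of Ifi203, at -1.01 to -0.50, 1 was called. Lower limits of a fold set the mean of the PJ34 channel against the faintest signal that counts as well above background, and a dye bias would change them.

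**Figure D2:**
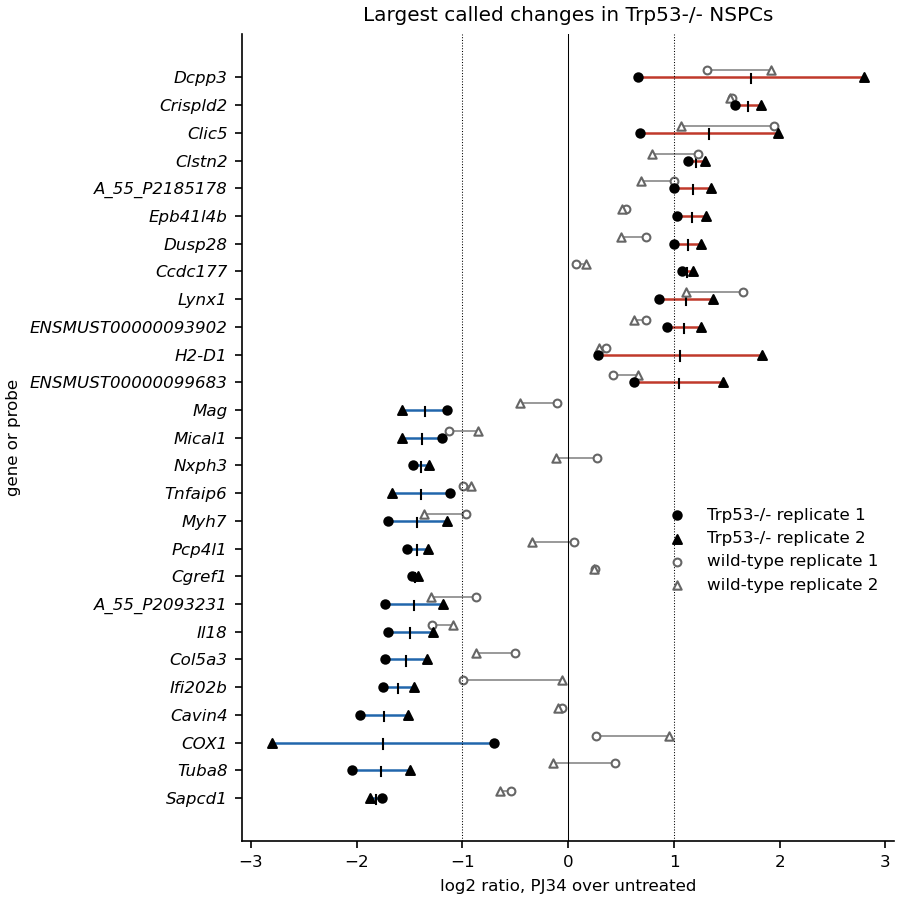
Log2 ratios of PJ34 over untreated for called genes in Trp53-/- NSPCs, with 1 point per array and wild-type arrays beside them. Crispld2 lies between 1.53 and 1.82 on all 4 arrays, and Cgref1 lies at -1.48 and -1.42 in Trp53-/- and at 0.26 and 0.24 in wild-type.

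The called genes were in part those called in wild-type cells. With PJ34 in the same dye on every array, a dye bias of a probe would be shared by both genotypes. For genes called in both, such a bias and an effect of PJ34 cannot be told apart. Of the 18 genes that rose, 6 (33.3%) were among the 58 genes called higher in wild-type NSPCs (0.287% of genes), which is 10.3% of that list. Of the 55 that fell, 10 (18.2%) were among the 43 called lower in wild-type (0.213% of genes), or 23.3% of that list, and no gene was called in opposite directions. Crispld2 was shared, with 1.55 and 1.53 on the wild-type arrays, as were Fgfr3 (-1.49 and -1.39), Cd93 (-1.16 and -1.48) and Il18 (-1.29 and -1.09). When the difference between genotypes was tested (Trp53-/- minus wild-type, same thresholds), 8 genes were higher in Trp53-/- (0.0396%) and 88 lower (0.435%), and 17 of the 55 genes that fell and 2 of the 18 that rose were among them. These calls depended on the background correction, with 40 in all at an offset of 16. With the scanner software's log ratios limma called none, and 2336 genes had an unadjusted p below 0.05 for the difference. Cgref1 differed by -1.70, Nxph3 by -1.47 and Diras2, a small GTPase with -1.07 and -1.23 in Trp53-/- cells, by -1.29. Their ratios were lower than in wild-type cells by more than the spread between arrays. For Nxph3, faint in untreated wild-type cells, a decrease there may not have registered. Ccdc177 differed by 1.01, and H2bc4, a histone H2B gene, by -1.04, since it was at 1.01 and 1.05 in Trp53-/- cells and at 2.33 and 1.81 in wild-type cells.

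**Figure D3:**
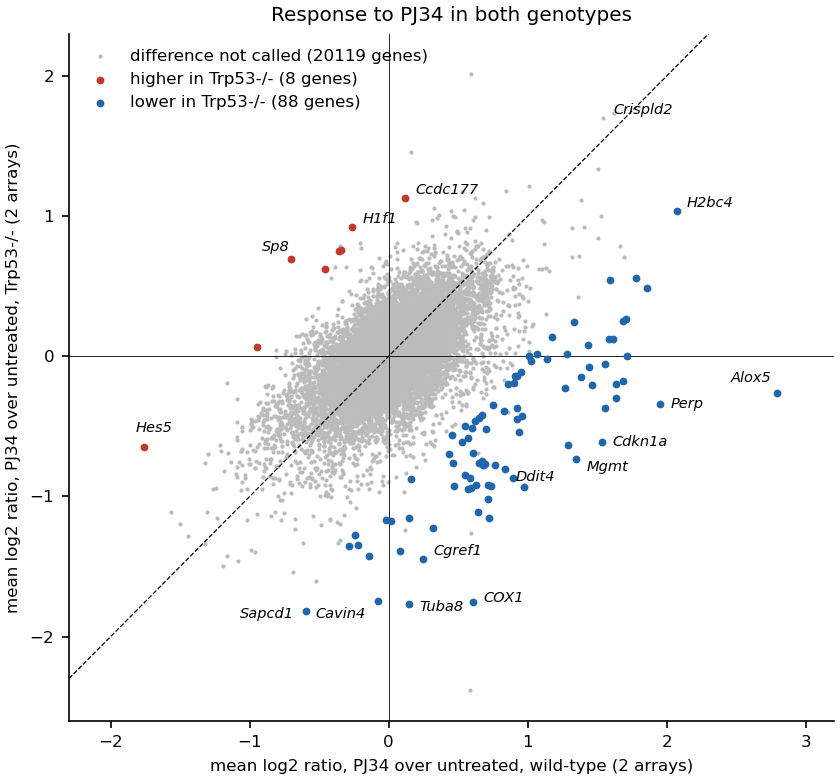
Mean log2 ratio of PJ34 over untreated in wild-type (x axis) and in Trp53-/- NSPCs (y axis), 1 point per gene, with the genes called in the difference between genotypes in colour. Alox5, Perp, Cdkn1a and Mgmt lie at the right and below 0, of which Alox5 was not well above background in Trp53-/- cells, and Sapcd1, Cavin4, Tuba8 and COX1 lie at the bottom.

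None of the p53 target genes on the 2 lists used here was called in Trp53-/- NSPCs with both arrays, and targets outside these lists were not examined as such. Of all genes only 0.089% rose and 0.272% fell, so lists of this size without a called gene are near that share. None of the 8 target genes that the study named in the p53 signaling pathway was called, their median was -0.15, and 3 were lower at q below 0.05 (none without replicate 2). Cdkn1a, which encodes the cell cycle inhibitor p21, had -0.48 and -0.74. The death receptor gene Fas had -0.48 and -0.27, but it was faint, with a PJ34 channel well above background on only 1 of the 2 Trp53-/- arrays. Perp, a membrane protein of p53-dependent apoptosis, had -0.16 and -0.52. Both other kept probes of Cdkn1a had means near 0 (-0.018 and 0.056). Bbc3 (PUMA) had -0.12 and -0.02 and Pmaip1 (NOXA) had 0.38 and 0.12. Perp, Tnfrsf10b, Pidd1 and Pmaip1 were dim in untreated Trp53-/- cells, at log2 intensities of 6.97 to 7.39, though well above background. A decrease of these genes may not have registered in full, which limits the sizes of their differences below. In wild-type cells the same 8 genes had a median of 1.54. The difference was called for 7 of them, Perp (-2.29), Cdkn1a (-2.14), Fas (-1.93), Bbc3 (-1.51), Ccng1 (-1.50), Tnfrsf10b (-1.46) and Pmaip1 (-1.44). The study chose these 8 genes on arrays of this series, so the wild-type side of that contrast is not independent evidence. Of 53 other p53 target genes tested, none was called in Trp53-/- cells, 2 were higher and 6 lower at q below 0.05 (1 and 3 without replicate 2), the median was -0.06, 10 were called lower in the difference, and 22 were lower there at q below 0.05 (1.29% of all genes). Over all genes, 12.8% were higher and 10.5% lower at q below 0.05 in Trp53-/- cells, and 0.435% were called lower in the difference. Psrc1 had -0.57 and -0.98 against 0.84 and 0.69 in wild-type, and Mdm2, the ubiquitin ligase of p53, had 0.01 and -0.07 and differed by -1.05. Plk2, a polo-like kinase, was higher in both genotypes, at 1.03 and 0.25 on the Trp53-/- arrays with a wild-type mean of 1.00, and it was called higher in Trp53-/- cells when replicate 2 was left out.

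Of the 88 genes called lower in the difference, 9 were not well above background in any Trp53-/- channel, so no Trp53-/- ratio was measured for them. Alox5 (chr6:116360326-116360385), the 5-lipoxygenase, was one of these, with 3.06 and 2.52 on the wild-type arrays. Mgmt, which removes alkyl groups from DNA, had -0.82 and -0.64 against 1.40 and 1.30. In the other direction, H1f1, a linker histone, differed by 1.18, and Hes5, a Notch effector, by 1.11. Sp8, a patterning factor, was also called there, but in untreated Trp53-/- cells it was not well above background, and its ratios of 0.18 and 1.21 give only that it was at least 1.48-fold higher with PJ34. Hes5 was lower at q below 0.05 in Trp53-/- cells, at -0.85 and -0.44, and lower still in wild-type cells, at -2.01 and -1.50. Slc1a5, a glutamine transporter, differed by 1.02, with -0.09 and 0.23 in Trp53-/- cells and a wild-type mean of -0.95.

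Mitochondrially encoded transcripts were lower with PJ34 in Trp53-/- NSPCs and higher in wild-type NSPCs. These genes encode subunits of the respiratory chain and are read from the mitochondrial genome by its own polymerase. Of 11 with a probe that passed the filter, 3 fell, 10 were lower at q below 0.05, and all 11 were below 0 on both arrays, with a median of -0.92 against 0.03 for all genes. The 2 arrays differed in size, with medians of -0.51 on replicate 1 and -1.29 on replicate 2. COX1 had -0.70 and -2.80, CYTB had -0.77 and -1.55, and COX2 had -0.63 and -1.59. Without replicate 2 none of the 11 was called and 4 were lower at q below 0.05. In wild-type cells the median was 0.67, and the difference was called for 10 of the 11, among them COX1 (-2.36), CYTB (-1.88) and ND4 (-1.77). The probes of COX2, COX3, ATP8, ND3 and ND4L are placed by the files on chromosome 1 (chr1:24621739-24621798 for COX2), so signal from the mitochondrial genome and from a nuclear copy there cannot be told apart for these. COX1 (chrM:6650-6709) and CYTB (chrM:15099-15158) are placed on the mitochondrial genome. The nuclear genes of the respiratory chain did not share the decrease, with a median of 0.07 over 61 genes, 2 higher and 2 lower at q below 0.05 (none without replicate 2).

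The p200 interferon family lies in a cluster on chromosome 1 and encodes nuclear DNA-binding proteins that are induced by interferon. Of 6 members tested, 4 fell, and their median was -1.09 with -1.25 and -0.91 on the 2 arrays. Ifi202b (chr1:175892953-175893982) had -1.75 and -1.46. Mndal had -1.28 and -1.05, Ifi203 had -1.32 and -0.99, and Ifi204 had -1.23 and -0.82. All 4 were called again without replicate 2. Ifi209, at -0.82 and -0.48, was lower at q below 0.05, and Ifi208 had 0.41 and 0.46, so the cluster did not move as a whole. The wild-type median was -0.48, and the difference between genotypes was not called for any of the 6. Of 13 other interferon-stimulated genes tested, none was called, 1 was higher and 4 lower at q below 0.05 (none without replicate 2), and the median was -0.09. Chromosome 1 held 10 of the 55 genes that fell (18.2%) and 5.75% of all genes tested. Of the 10, 7 lie at a pair of loci, with these 4 genes and an unnamed probe (chr1:175706660-175706719) in the cluster, and COX2 and ENSMUST00000105091 beside each other elsewhere on the chromosome.

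**Figure D4:**
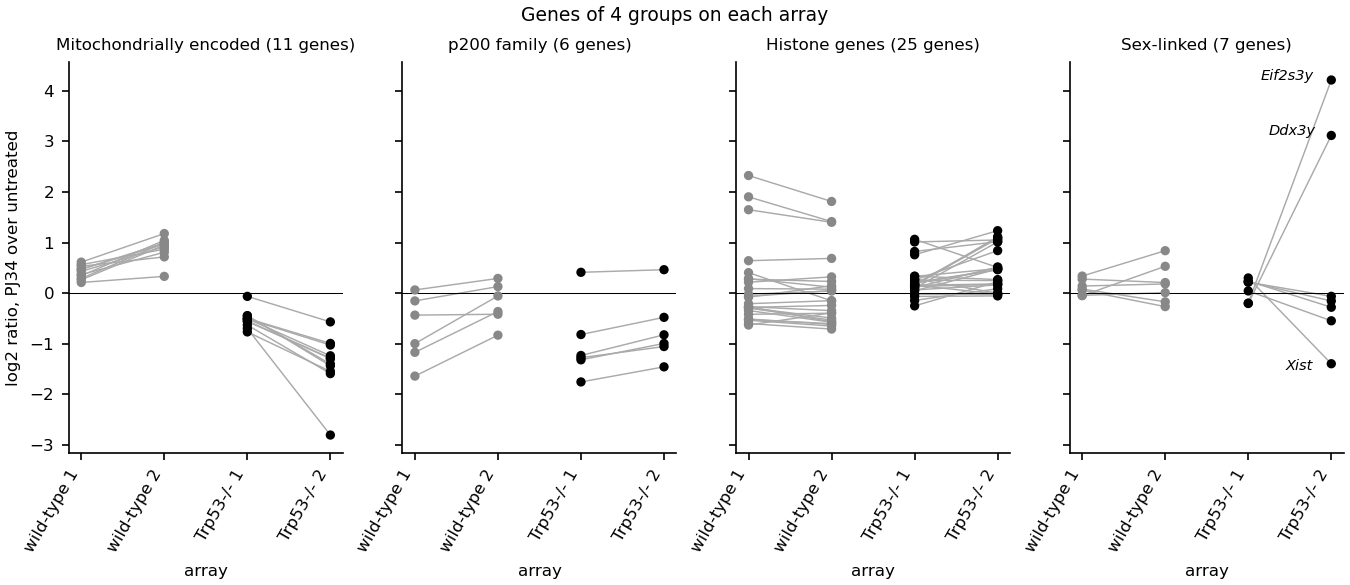
Log2 ratios on each of the 4 arrays for the mitochondrially encoded, p200 family, histone and sex-linked genes, 1 line per gene within a genotype. Mitochondrially encoded transcripts lie above 0 on the wild-type arrays and below 0 on the Trp53-/- arrays, further below on replicate 2, the array on which the Y-linked genes stand out.

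Genes of cholesterol synthesis were lower with PJ34, as a group of small changes. None of the 22 was called, but 15 were lower and none higher at q below 0.05, 19 were below 0 on both arrays, and the median was -0.55 with -0.63 and -0.52 on the 2 arrays. Mvd, of the mevalonate branch, had -1.11 and -0.76, Dhcr7, the last reductase of the pathway, had -0.83 and -0.56, and Idi1 had -0.79 and -0.75. The decrease was no larger than in wild-type cells, where the median was -0.71. The difference between genotypes was above 0 for 21 of the 22 genes and passed q below 0.05 for 1. Genes that control or move sterols were mixed, with 5 of 19 higher and 6 lower at q below 0.05 (1 and 3 without replicate 2). Insig1 had -0.62 and -0.43, while Abca1, a cholesterol exporter, had 0.67 and 0.99. Of 23 genes of fatty acid synthesis, 3 were higher and 7 lower (1 and 0 without replicate 2).

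The sterol regulatory element binds SREBP factors, which drive cholesterol synthesis. The motif searched, TCACNCCAC on both strands, was present in the window from 250 bases before to 50 after the start of 1 of 17 cholesterol synthesis genes with a window (Hmgcs1) and of 1.43% of all 10741 tested genes with one. The box CCAATCA, bound by NF-Y, was present in 11 of the 17 (64.7%) and in 11.8% of all. Hmgcs1, a synthase of the mevalonate branch, had log2 ratios of -0.68 and -0.60. It is shown because it alone of the list held the first motif, which is in capitals, and all promoters here are 5′ to 3′ from RefSeq on GRCm38.p6.
Hmgcs1 (chr13:119690201-119690380, plus strand): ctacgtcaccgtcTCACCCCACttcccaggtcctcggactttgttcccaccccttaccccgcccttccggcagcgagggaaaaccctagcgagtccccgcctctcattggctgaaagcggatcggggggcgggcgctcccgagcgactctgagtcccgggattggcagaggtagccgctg

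The integrated stress response is the program by which the factor ATF4 raises genes for amino acid supply and redox balance. In Trp53-/- NSPCs its targets were lower with PJ34. Of 38 genes tested 1 fell, 21 were lower (10.5% of all genes) and 2 higher (12.8% of all genes) at q below 0.05, and the median was -0.28. Nupr1, a small stress-induced chromatin protein, had -1.36 and -1.34. Trib3, a pseudokinase, had -0.76 and -1.17, Chac1, which degrades glutathione, had -0.99 and -0.89, and Asns, the asparagine synthetase, had -0.80 and -0.85. Atf4 itself had -0.35 and -0.64 and Ddit3 (CHOP) had -0.44 and -0.54. Slc1a4 (0.61 and 0.56) and Cebpb (0.26 and 0.25) were the genes higher at q below 0.05. Without replicate 2, 7 were lower and 1 higher at q below 0.05. The wild-type median was -0.11, and the difference was called lower for Nupr1 (-1.13), Ddit4 (-1.64) and Sesn2 (-1.01), of which Ddit4 and Sesn2 are also p53 targets, and higher for Slc1a5. Endoplasmic reticulum chaperones, which answer to misfolded protein, were lower for 10 of 20 genes (3 without replicate 2) and higher for none, with Xbp1 at -0.72 and -0.80. Their median of -0.24 turned to just above that of all genes with median centring in place of loess.

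ATF4 dimers bind a composite element read here as TGATGNAA on either strand. It was present in the promoter window of 9 of 32 genes of this response (28.1%) and of 2.67% of all tested genes with a window. The 9 were Nupr1, Trib3, Chac1, Asns, Pycr1, Vldlr, Atf3, Slc7a11 and Slc1a4, of which Slc1a4 was higher and Atf3 and Slc7a11 did not pass q below 0.05, so the element did not go with 1 direction. The stretches below are shown because their genes had the largest decreases of the list, and the capitals mark the element, which lies on the minus strand of each stretch as printed.
Nupr1 (chr7:126625441-126625620, minus strand): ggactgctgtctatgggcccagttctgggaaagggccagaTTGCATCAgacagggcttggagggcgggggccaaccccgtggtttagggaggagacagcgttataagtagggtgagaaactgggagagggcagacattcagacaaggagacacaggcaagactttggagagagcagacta
Trib3 (chr2:152344031-152344210, minus strand): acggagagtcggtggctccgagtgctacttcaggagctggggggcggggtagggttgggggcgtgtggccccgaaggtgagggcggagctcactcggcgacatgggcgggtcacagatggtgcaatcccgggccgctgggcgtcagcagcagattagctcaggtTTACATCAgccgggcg
Chac1 (chr2:119350992-119351116, plus strand): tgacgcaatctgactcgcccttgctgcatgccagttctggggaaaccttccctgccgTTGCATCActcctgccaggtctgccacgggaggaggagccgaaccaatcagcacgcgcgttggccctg

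Of 47 genes of mitosis and the G2 phase none was called, 22 were lower (10.5% of all genes) and none higher at q below 0.05, and 33 were below 0 on both arrays, with medians of -0.19 on replicate 1 and -0.51 on replicate 2. Cenpa, the centromeric histone, had -0.72 and -1.18, Ccnb2 (cyclin B2) had -0.55 and -0.94, and Cdc20, an activator of the anaphase-promoting complex, had -0.44 and -0.73. Without replicate 2, 1 of the 47 was lower and none higher at q below 0.05, where 3.43% of all genes were lower, so the count rested on replicate 2. In wild-type cells 45 of the 47 were lower at q below 0.05 (11.3% of all genes), with a median of -0.67 and 3 called. The difference was positive for 43 of the 47 and passed q below 0.05 for none. Of 52 genes of DNA replication and the S phase, 12 were higher (12.8% of all genes) and 2 lower at q below 0.05 in Trp53-/- cells (5 and 0 without replicate 2, where 3.14% of all genes were higher), and the median was 0.09. Gins4, a subunit of the replicative helicase, had 0.51 and 0.75, Tyms, the thymidylate synthase, had 0.56 and 0.56, and Pole2, of DNA polymerase epsilon, had 0.61 and 0.48. In wild-type cells 37 of the 52 were lower and none higher at q below 0.05, with a median of -0.38. The difference was positive for 51 of the 52, with a median of 0.52, and 15 (0.475% of all genes in that direction) passed q below 0.05, none with a negative sign. Genes of homologous recombination and the Fanconi pathway were higher for 10 of 31 (3 without replicate 2) and lower for 1, with Brca2 at 0.52 and 0.66 and Exo1 at 0.49 and 0.34.

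The cell cycle homology region, searched as TTTGAA or TTCGAA on both strands, is the element through which the DREAM complex and B-MYB act on genes of the G2 and M phases. It was present in 29 of 39 windows of these genes (74.4%), in 9 of 43 of the replication genes (20.9%) and in 16.2% of all tested genes with a window. The 3 promoters shown belong to genes among those with the largest decreases that hold it, and the capitals mark the match.
Cenpa (chr5:30666736-30666915, plus strand): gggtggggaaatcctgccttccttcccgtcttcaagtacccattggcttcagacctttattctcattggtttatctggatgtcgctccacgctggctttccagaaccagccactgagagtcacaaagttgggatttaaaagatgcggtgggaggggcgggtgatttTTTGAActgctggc
Ccnb2 (chr9:70421525-70421704, minus strand): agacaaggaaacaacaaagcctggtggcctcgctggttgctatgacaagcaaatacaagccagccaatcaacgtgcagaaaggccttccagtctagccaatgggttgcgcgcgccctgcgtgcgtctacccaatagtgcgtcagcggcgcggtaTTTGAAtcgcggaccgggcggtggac
Cdc20 (chr4:118437314-118437493, minus strand): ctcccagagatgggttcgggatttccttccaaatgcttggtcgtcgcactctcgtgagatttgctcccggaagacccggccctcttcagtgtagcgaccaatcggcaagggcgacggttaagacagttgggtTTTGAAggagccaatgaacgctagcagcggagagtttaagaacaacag

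Replication-dependent histone genes, whose transcripts are made in the S phase and end without a poly(A) tail, were higher with PJ34. Of 25 tested, 1 rose (H2bc4), 14 were higher and none lower at q below 0.05, and the median was 0.32. H1f1 had 0.83 and 1.02 and H2ac18 had 0.76 and 1.24. The histone H4 genes differed between arrays, with H4c4 at 0.16 and 1.08 and H4c11 at 0.15 and 1.12, and without replicate 2 the count at q below 0.05 was 4. In wild-type cells the median was -0.18, but 3 of the 25 were called higher there (0.287% of all genes). At q below 0.05, 6 were higher and 9 lower in wild-type cells (13.6% and 11.3% of all genes). The difference was called higher for H1f1 (1.18) and H4c4 (1.08) and lower for H2bc4. These genes are near-identical copies, and the probes of H2ac10 and H2ac20 share a run of 39 of 60 bases, so a value may hold signal of more than 1 member.

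**Figure D5:**
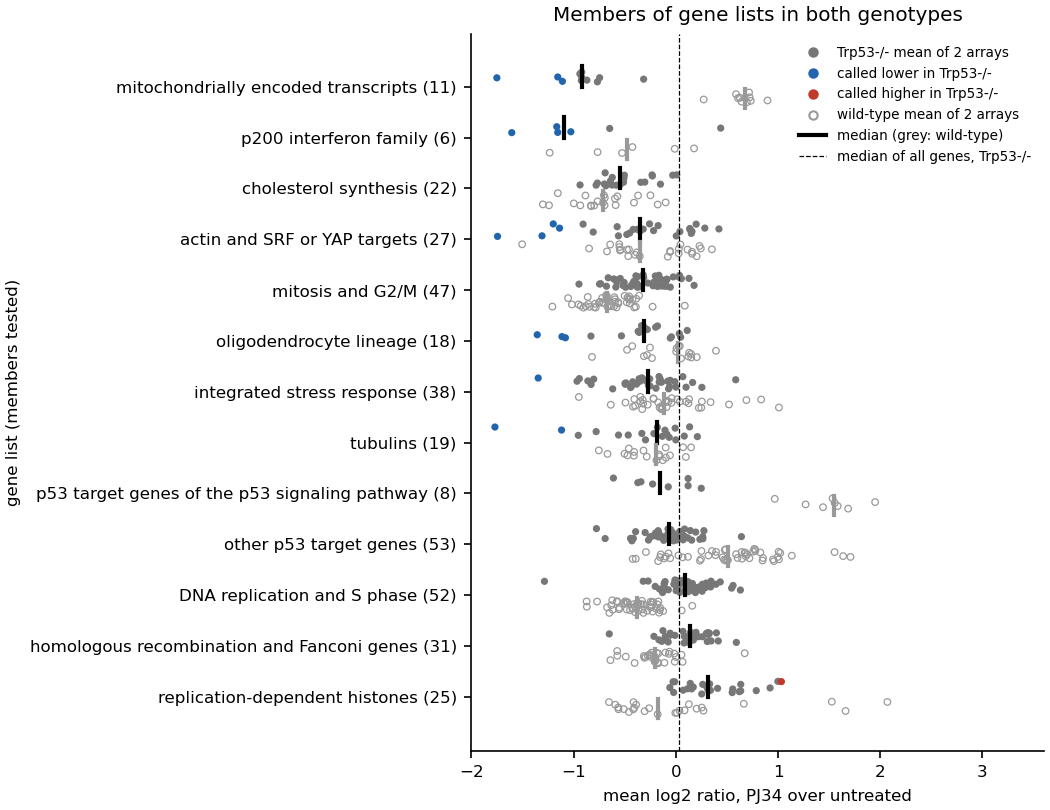
Mean log2 ratio of PJ34 over untreated for each tested member of 13 gene lists in Trp53-/- (filled) and wild-type NSPCs (open), with bars at the list medians. The mitochondrially encoded and p53 target lists separate by genotype, while cholesterol synthesis lies below 0 in both.

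Genes of actin and of SRF or YAP control, which build the contractile cytoskeleton and caveolae, were lower. Of 27 tested 4 fell, 15 were lower and 2 higher at q below 0.05, and the median was -0.35. Beside Cavin4, these were Myl9 (-1.66 and -0.95), a myosin light chain, Tagln2 (-1.32 and -1.07), a transgelin, and Acta2 (-1.20 and -1.08), the smooth muscle actin. All 4 were called again without replicate 2, when 9 were lower and 1 higher at q below 0.05. The genes higher were Actg1 (0.48 and 0.36), the cytoplasmic gamma-actin, and Ccn2 (0.17 and 0.40). The median of the wild-type means was -0.35, with medians of -0.15 and -0.098 on the 2 wild-type arrays against -0.32 and -0.35 on the Trp53-/- arrays, and only Cavin4 was called in the difference. Among 19 tubulins Tuba8 and Tuba1c (-0.77 and -1.46) fell, and 8 were lower at q below 0.05, 4 without replicate 2. The CArG box bound by SRF was present in 6 of 23 windows of the actin list (26.1%) and in 1.63% of all. The 6 were Myl9, Cnn2, Acta1, Vcl, Srf and Actg1. The Myl9 promoter is shown because it is the called gene that holds the box, which is in capitals and reads as a CArG box on both strands.
Myl9 (chr2:156775243-156775372, plus strand): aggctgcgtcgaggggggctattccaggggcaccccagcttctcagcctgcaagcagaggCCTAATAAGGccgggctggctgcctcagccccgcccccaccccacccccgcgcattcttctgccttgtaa

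Markers of the cell types that such cultures can hold were examined next. Oligodendrocyte lineage genes were lower, with 3 of 18 fallen, 11 lower and none higher at q below 0.05, and a median of -0.31 against 0.02 in wild-type. Mag, of the myelin sheath, had -1.14 and -1.57, and Cldn11, a myelin claudin, had -1.36 and -0.80. Olig2, the lineage factor, had -0.52 and -0.55, and Cspg4 (NG2) had -0.93 and -0.73. Without replicate 2, 3 were called and 7 were lower at q below 0.05. Of 18 astrocyte markers Fgfr3 fell, 6 were higher and 5 lower at q below 0.05 (0 and 3 without replicate 2). Gfap, the intermediate filament of astrocytes, read -0.00 and 1.62, and a second of its probes read -0.11 and 1.49, so its increase was seen on replicate 2 alone. Of 19 neuronal markers 3 were higher and 2 lower (2 and 0 without replicate 2), with Nefl at 0.55 and 0.48 and Mapt at -0.42 and -0.34.

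The stem cell identity genes were all 29 measured, and 6 were higher and 6 lower at q below 0.05 (3 and 2 without replicate 2). Gli3 (0.90 and 0.58), Prom1 (0.61 and 0.86), Fabp7 (0.60 and 0.57) and Id4 (0.32 and 0.55) were higher, and Hes5, Tnc (-0.48 and -0.33) and Vim (-0.41 and -0.20) were lower. Sox2 had -0.20 and -0.14 and Nes, which encodes nestin, had -0.33 and 0.04, neither past q below 0.05. In the Notch pathway Mfng, a fringe glycosyltransferase, fell (-0.82 and -1.41), and 8 of 27 genes were lower and 3 higher at q below 0.05 (6 and 1 without replicate 2). Dtx1 (-0.98 and -0.87), Hes6 (-1.05 and -0.68) and the receptor Notch3 (-0.66 and -0.71) were lower, and the ligand Jag1 (0.58 and 0.52) was higher. Notch3 had a wild-type mean of 0.61, a difference of -1.30 that was called. Of the hedgehog genes, Cdon (0.80 and 0.97), Gli3 and Gas1 (0.69 and 0.53) were the 3 of 11 that were higher, and none was lower. Among 20 genes of FGF signalling 1 fell, Fgfr3, 2 were higher and 5 lower at q below 0.05 (1 and 3 without replicate 2).

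Other cell types were thinly represented. For endothelium and pericytes 5 of 15 markers passed the filter. Cd93 fell, and Cspg4 and Flt1 (-0.59 and -0.74) were lower at q below 0.05, while Kdr, with a mean above -0.2, was not, and Pecam1 was not well above background in Trp53-/- cells. Cdh5, Tek, Tie1, Cldn5 and Emcn had no probe that passed the filter. For microglia 6 of 15 passed, and none was called. For fibroblasts and meninges 6 of 14 passed, Col1a1, Col3a1, Dcn and Lum not among them, and 3 were lower, Col6a1, Thy1 and Pdgfra. The part of cell types in the changes above was not tested.

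The PARP family holds the targets of the inhibitor. Of 25 genes of the family and of poly(ADP-ribose) turnover none was called, 4 were higher and 1 lower at q below 0.05 (12.8% and 10.5% of all genes). Parp1 had -0.17 and -0.09 and Parp2 had 0.16 and 0.01. Tiparp, a mono-ADP-ribosyltransferase and target of the aryl hydrocarbon receptor, had 0.55 and 0.48, and Tnks2 (tankyrase 2) had 0.53 and 0.40. Parp16 had -0.59 and -0.43. Of 16 genes of NAD synthesis and use, 1 was higher and 2 lower at q below 0.05 (1 and 0 without replicate 2). Nmnat1, which makes NAD in the nucleus, was higher at 0.63 and 0.77. Nmnat3 (-0.26 and -0.32) and Nadsyn1 (-0.22 and -0.27) were lower. Among p53 regulators the kinase gene Atm (0.54 and 0.42) was higher and Cdkn2a (-0.41 and -0.39) lower. In the NRF2 list 7 of 25 genes were lower (1 without replicate 2), with the sulfiredoxin gene Srxn1 at -0.79 and -0.79, and 1 was higher. Relative to all genes the median of this list turned from -0.13 to 0.15 with median centring in place of loess. Immediate early genes were lower for 8 of 26, with Fosl2 at -0.73 and -0.63, and higher for 3 (2 and 1 without replicate 2). Cytosolic ribosomal protein genes were higher for 19 of 75 and lower for 1 (none without replicate 2), with a median of 0.11, 0.08 above that of all genes. That direction turned with the scanner software's log ratios, to -0.015 relative to all genes.

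The remaining lists held no called gene, where 0.089% of all genes rose and 0.272% fell. Of all genes, 12.8% were higher and 10.5% lower at q below 0.05. At q below 0.05, of 20 genes of the G1 phase 3 were higher and 5 lower, of 29 Bcl2 family and caspase genes 2 and 5, of 17 BMP pathway genes 4 and 1, and of 21 Wnt genes 1 and 3. Leaving out replicate 2 gave 2 and 0, 0 and 1, 1 and 1, and 1 and 0 in the same order. Bok, a Bcl2 relative, had -0.78 and -0.86, and Id2, an inhibitor of bHLH factors, had 0.40 and 0.58. Of 23 glycolysis genes 1 was higher and 3 lower, of 17 hypoxia genes 2 and 5, of 19 heat shock genes 2 and 5, and of 6 aryl hydrocarbon receptor targets 1 and 0, and without replicate 2 they were 0 and 2, 1 and 1, 0 and 2, and 1 and 0. Cryab, a small heat shock protein, had -0.91 and -0.82, and Eno2, the neuronal enolase, had -0.59 and -0.62. With median centring in place of loess, medians relative to all genes turned for the heat shock (-0.14 to 0.20) and glycolysis (-0.082 to 0.24) lists.

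Genes on which the 2 Trp53-/- arrays went apart were more numerous than in wild-type. The arrays differed by more than 1 for 47 genes, against 15 in wild-type, and by more than 1.5 for 16 against 1. Beside the sex-linked probes, Prim2, the large subunit of DNA primase, had 0.41 and -2.98 (wild-type -0.25 and -0.24). Rab3b, a vesicle GTPase, had -0.77 and 1.75, and H2-D1, a class I histocompatibility gene that was called, had 0.28 and 1.83. Gstt1, a glutathione transferase that was called lower, had -0.41 on replicate 1 and was more than 1.5 lower still on replicate 2. For each of these genes the mean of the 2 arrays describes neither array.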

How the data were processed

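Expression arrays with 2 channels (Agilent SurePrint G3 Mouse GE) of 2 Trp53-/- and 2 wild-type cultures were used. The authors scanned them with Agilent Feature Extraction 10.7.3.1. The deposited intensity values are uncorrected mean spot and median local background brightness per channel. The deposited log10 ratios of the same software, background-subtracted and dye-normalized, served as an alternative after conversion to log2. A table with 4 columns of values matched to no sample was not used.

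The background was corrected by limma 3.58.1 in R 4.3.3 (normexp, offset 50, all spots). Ratios were normalized by loess within arrays with controls and outlier spots at weight 0, and spots of a probe were averaged. Channel intensities and the lower limits of a fold were read after a further scaling between arrays (Aquantile), which the tested ratios did not use. A gene was read from its brightest kept probe over the 4 arrays, the 8 p53 pathway genes from the probe that the study named. RefSeq accessions (GRCm38.p6) gave the symbols of 26396 of 55681 probes (47.4%), and the files gave the others. The files place probes on mm9, and exon or UTR annotation of that build was not used here. limma's linear model of all 4 arrays had 1 mean for each genotype (2 residual degrees of freedom, 10.3 after moderation), with Storey's q (lambda 0.05 to 0.95). Each genotype's mean was tested against 0 and the difference as Trp53-/- minus wild-type.

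The array choice, gene lists and rule for named genes were made with earlier results of these data known. The rule took, of called genes with 1 sign on both Trp53-/- arrays, the 12 largest increases and 15 largest decreases, the 8 largest differences each way, Trp53, the p53 pathway and sex-linked genes, and of each list every called member and the 3 largest means. Genes named beyond it were chosen after their values were seen. Promoter windows (250 bases before to 50 after the start) were RefSeq's.

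The fit was tested on simulated ratios of 20215 genes with 200 changed, and 200 were recovered both in the Trp53-/- contrast, with 0 false calls, and in the difference, with 2. The planted changes all lay beyond the 2-fold limit, and the noise was drawn independently for each array. Recovery was therefore close to fixed in advance. It does not show how the fit performs on changes near that limit or on differences confined to a single array. Same-numbered arrays of the genotypes had deviations correlated at -0.18 across genes, so the numbers were not taken as pairs. Each array had its own slide, so no slide block could be fitted. Alternatives covered background, scaling, filters, blocks, adjustment, fold limits, probes, sex chromosomes and each array left out.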

Additional observations from a re-analysis of the deposited data

Results flagged for a closer look

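The genes below were singled out because limma's test of the difference in log2 ratio (Trp53-/- minus wild-type) called them and they were named by the rule. Of p53 targets, the differences were Perp (-2.29), Cdkn1a (-2.14), Fas (-1.93), Ddit4 (-1.64), Psrc1 (-1.54), Bbc3 (-1.51), Ccng1 (-1.50), Tnfrsf10b (-1.46) and Pmaip1 (-1.44). Of mitochondrially encoded transcripts and a probe beside the COX2 probe on chromosome 1, they were COX1 (-2.36), CYTB (-1.88), COX2 (-1.75) and ENSMUST00000105091 (-1.73). These last 4 were lower with PJ34 on both Trp53-/- arrays and higher on both wild-type arrays.

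Of the genes that fell in Trp53-/- cells, the differences were Tuba8 (-1.92), Cgref1 (-1.70), Cavin4 (-1.67), Mxra7 (-1.55), Nxph3 (-1.47), Diras2 (-1.29), Pcp4l1 (-1.28), Sapcd1 (-1.23), Akr1b8 (-1.19), Unc5b (-1.15), Nupr1 (-1.13), Mag (-1.07) and A_55_P2063426 (-1.03). Among them Cavin4, Tuba8, Nxph3, Nupr1 and A_55_P2063426 were faint in untreated wild-type cells, at log2 intensities of 6.42 to 7.19. A decrease there may not have registered. Of genes that were not called in Trp53-/- cells, they were Mgmt (-2.08) and chr19:5801802-5802597_R (-1.92). The fitted differences of Alox5 (-3.05) and 1700007K13Rik (-1.93) are not measured sizes, since neither gene was well above background in any Trp53-/- channel. H2bc4, which rose in both genotypes, differed by -1.04. The differences above 0 were those of Ccdc177 (1.01), Slc1a5 (1.02), H4c4 (1.08), Tmem132e (1.10), H4f16 (1.11), Hes5 (1.11), H1f1 (1.18) and Sp8 (1.40). That of Sp8 is likewise no measured size, since in untreated Trp53-/- cells it was not well above background.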

How the results depend on the processing

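Of the 73 called genes, 49 were called again without Trp53-/- replicate 2 and 66 without replicate 1. Ddx3y and Eif2s3y turned to -0.20 without replicate 2 and stood at 3.12 and 4.22 without replicate 1. Leaving out 1 array gave 14 to 59 genes higher, 58 to 106 lower and 93 to 163 in the difference, against 18, 55 and 96. The widest counts came without Trp53-/- replicate 1.

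With an offset of 16, 44 genes were higher, 85 lower and 40 differed between genotypes. With the scanner software's log ratios the counts were 377, 150 and, by limma, 0. Median centring on all probes gave 3384 higher and 4 lower, with 21 of the 73 called again and COX2 (0.095) and ENSMUST00000105091 (0.066) turned. Centring on kept probes gave 69 higher. With no fold limit 2590 were higher, 2127 lower and 356 differed. Under limma's treat against 2-fold, 0 were higher, 1 lower and 2 differed, while 6246 genes had an unadjusted p below 0.05 against no change. The cause of these shifts was not tested, save that the fold limits set their counts by construction. The replicate block gave 18, 58 and 108 calls, and its pairing is one of numbers alone. The crossed replicate block gave 18, 58 and 106.

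Under no background correction, scaling between arrays, the filters on dim probes, the Trp53-/- arrays alone, a variance trend, Benjamini-Hochberg adjustment, the mean of a gene's probes and the X and Y genes left out, the counts stayed within 1.5 times. Signal over background limits genes whose untreated channel was dim, and 2 arrays per genotype limit every value.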
